A study of Mus musculus with 6 samples.

Results

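Polycomb repressive complex 2 (PRC2) is the enzyme complex that methylates histone H3 at lysine 27, a mark found at silenced developmental genes. Its 10 subunit genes described here are Ezh1, Ezh2, Eed, Suz12, Rbbp4, Mtf2, Phf1, Phf19, Jarid2 and Aebp2. They were taken by symbol from a table of 15095 genes, and 10 of 10 were present. RNA was measured in neural progenitor cells (NPCs) derived from the mouse embryonic stem cell line HA36CB1, with 3 Setd2-KO and 3 wild type libraries. Setd2 encodes the methyltransferase that places trimethylation on lysine 36 of histone H3. Both genotypes were differentiated in the same way, with 4 days in medium without LIF or retinoic acid, then 4 days with 5 uM retinoic acid, and polyA RNA was taken at day 8. Nothing in the sources used here says that libraries of the same genotype are separate differentiations, or how many clones they represent. The p-values may therefore measure technical spread only, and clone and genotype cannot be told apart.

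PRC2 is built on a core of Eed, Suz12 and Rbbp4 together with an enzyme, Ezh2 or its relative Ezh1. Eed binds the methylated histone and stimulates the enzyme, Suz12 is the scaffold that holds the complex together, and Rbbp4 is a histone-binding protein also found in other chromatin complexes. The accessory subunits define a pair of forms. PRC2.1 carries one of the Polycomb-like proteins Mtf2, Phf1 and Phf19, and PRC2.2 carries Jarid2 and Aebp2. In stem cells and neural progenitors the complex keeps genes of other lineages in a silent state, and in stem cells Hox genes as well. Nucleosomes that carry lysine 36 methylation are a poor substrate for PRC2, and the Polycomb-like proteins can bind that mark through their Tudor domains.

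The deposited values are the authors' comparison of the genotypes and hold no value per library. Hence neither the level of a subunit in each genotype nor its spread over libraries can be given, and the depth of the libraries is unknown. For each gene there is a log2 fold change, turned here to Setd2-KO over wild type so that a positive value means higher in Setd2-KO cells. There is also a level, the average log2 CPM (read counts scaled to library size) over the 6 libraries, and a p-value with its false discovery rate (FDR, the p-value after Benjamini-Hochberg adjustment over all genes). The test, glmTreat in edgeR, asks whether a gene changed by more than a log2 fold change of 1, which is a doubling or more in either direction. A gene that did not pass it may still have changed by less. At an FDR under 0.05, 232 genes rose and 319 fell, 3.65% of all genes, and the smallest absolute log2 fold change among them was 1.09. These counts are those of the deposited values, and the paper reports slightly higher counts in each direction. The median log2 fold change of all genes was 0.01, and the middle 50% of genes lay between -0.30 and 0.29.

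None of the PRC2 subunits passed the test. In the authors' glmTreat test 0 of 10 had an FDR under 0.05, beside 3.65% of all genes (1.54% higher and 2.11% lower), and 0 of 10 had an unadjusted p under 0.05, beside 5.98% of all genes. The count was also 0 at an FDR under 0.01 (3% of all genes) and under 0.1 (4.06%). These counts of 0 among 10 genes lie close to background shares of a few percent. Their log2 fold changes ran between -0.55 for Jarid2 and 0.54 for Phf19, with a median of 0.16 and an SD over the 10 genes of 0.36. Without Rbbp4, which other chromatin complexes also contain, the median was 0.07. The point estimates were above 0 for 6 subunits and below 0 for 4, and 50.8% of all genes were above 0. The absolute values had a median of 0.32, close to the 0.29 of all genes. An absolute log2 fold change of at least 0.5 was seen for 2 of 10 subunits and for 28.8% of all genes. Against the middle 50% of all genes, 4 subunits lay above the range, 2 lay below it and 4 lay inside it. Every subunit had an FDR of 1, and the lowest p among them was 0.983. This p is not unusual in a test against a doubling, since 77.2% of all genes had a p over 0.98.

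**Figure D1:**
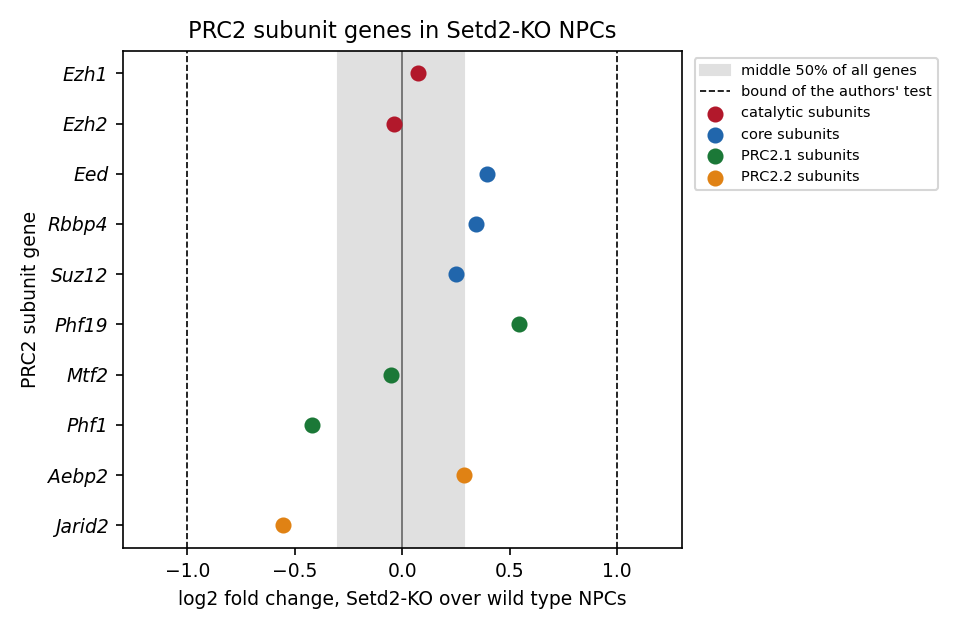
Log2 fold change between Setd2-KO and wild type cells (positive where Setd2-KO is higher) of each PRC2 subunit gene in NPCs, on the x axis, with 1 point per gene coloured by role. The grey band is the middle 50% of all genes (-0.30 to 0.29) and the dashed lines are the bounds of -1 and 1 that the authors tested against. All 10 points lie between the bounds, the core subunits are all right of 0, and the file gives no error for a point.

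Both catalytic subunits gave values near 0. Ezh2, the main methyltransferase of dividing cells, had a log2 fold change of -0.04, or 0.972 times the wild type level (FDR = 1 in the authors' glmTreat test). Ezh1, the related enzyme that prevails in non-dividing cells, had 0.07, or 1.05-fold (FDR = 1). Of all genes in the table, 54.5% had a higher log2 fold change than Ezh2 and 43.6% a higher one than Ezh1, so both sat near the middle of the table. Neither value passed the test, and since no standard error is given, the size of change that these values leave possible cannot be stated more closely.

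The core subunits all had point estimates above 0. Eed had a log2 fold change of 0.39 (1.31-fold), Rbbp4 of 0.34 (1.27-fold) and Suz12 of 0.25 (1.19-fold), with an FDR of 1 each and a mean of 0.33 over the 3 genes. These sizes were compared with genes whose average level lay within 0.5 log2 CPM of each subunit, because low genes scatter more. Of 2508 genes at the level of Eed, 10.01% had a higher log2 fold change. The share was 14.3% of 573 genes for Rbbp4 and 18.4% of 1802 genes for Suz12. The SD of the log2 fold change among the genes of similar level was 0.39 for Eed, 0.40 for Rbbp4 and 0.37 for Suz12, so Eed exceeded this spread over genes slightly and the other two did not. It is a spread over genes, not over replicates.

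The Polycomb-like subunits of PRC2.1 did not share a direction. Phf19 had the highest point estimate of all 10 subunits, 0.54 or 1.46-fold (FDR = 1 in the authors' glmTreat test). It was also the least abundant by a wide margin, with an average of 1.07 log2 CPM, and is the only subunit under the median level of all genes (4.57). At such levels the table scatters widely. Among 911 genes of similar level the SD was 0.85, 24.0% of them had a higher log2 fold change than Phf19, and 90 of them passed the test (9.88%). Mtf2, a subunit that brings PRC2 to unmethylated CpG islands, had -0.05, or 0.964 times the wild type level. Phf1 had -0.42, which is 25.3% below wild type, and 14.5% of 2552 genes of similar level had a lower value. Neither passed the test (FDR = 1 each).

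The PRC2.2 subunits had point estimates of opposite sign. Jarid2, a DNA- and nucleosome-binding subunit that also takes part in neural differentiation, had the lowest value of all 10 subunits, -0.55 or 31.9% below wild type (FDR = 1 in the authors' glmTreat test). Its level of 7.44 log2 CPM is high, where the spread over genes is small. Of 1148 genes of similar level only 8.19% had a lower log2 fold change, and their SD was 0.37. Of these 1148 genes, 14 passed the test, and the smallest absolute log2 fold change among those was 1.12, against 0.55 for Jarid2. Aebp2, a zinc finger protein that stimulates the enzyme, had 0.29 or 1.22-fold (FDR = 1), and 16.1% of 2154 genes of similar level were higher. The difference between Jarid2 and Aebp2 was not tested, because the file has no values per library.

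**Figure D2:**
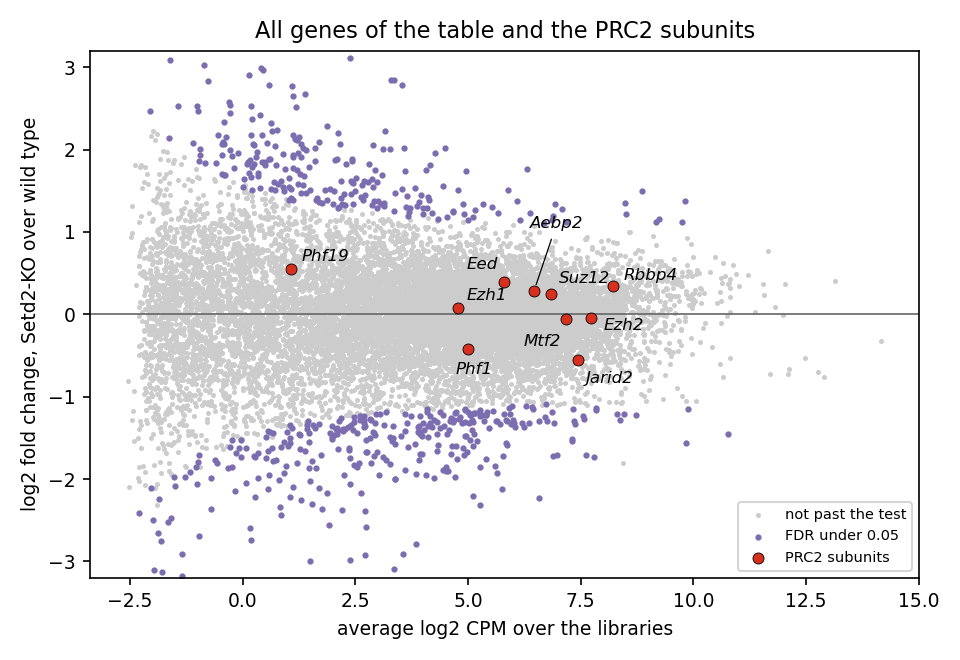
Log2 fold change between Setd2-KO and wild type cells (positive where Setd2-KO is higher) on the y axis against the average log2 CPM over the 6 libraries (x axis) for all 15095 genes, except 12 beyond the plotted limit of 3.2 in either direction. Purple points are the genes with an FDR under 0.05 and red points the PRC2 subunits, which lie inside the grey cloud of genes not past the test, with Phf19 alone at low levels.

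The subunits are spread over the genome. In GRCm39 with GENCODE vM39, Ezh2 lies at chr6:47507073-47572331 on the minus strand with 20 exons and Ezh1 at chr11:101081934-101117315 on the minus strand with 21 exons. Of the core genes, Eed is at chr7:89603862-89630217 (minus strand, 12 exons), Suz12 at chr11:79883891-79925421 (plus strand, 16 exons) and Rbbp4 at chr4:129184867-129229170 (minus strand, 12 exons). Mtf2 is at chr5:108213540-108256877 (plus strand, 15 exons), Phf1 at chr17:27152002-27156892 (plus strand, 14 exons) and Phf19 at chr2:34783764-34805063 (minus strand, 15 exons). Jarid2 is at chr13:44882950-45075119 (plus strand, 18 exons) and Aebp2 at chr6:140546644-140713010 (plus strand, 8 exons). Hence they occupy 8 chromosomes. Jarid2, the lowest by log2 fold change, is the longest at 192 kb, and Phf1, the next lowest, is the shortest at 4.89 kb.

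The genes around the subunits had medians close to 0. Within 1 Mb of each subunit the median log2 fold change of the other genes lay between -0.25 near Aebp2 (2 genes) and 0.19 near Eed (13 genes). The 6 neighbours of Jarid2 had a median of 0.07 and the 41 neighbours of Phf1 a median of -0.01, beside the negative values of both subunits. The 17 neighbours of Phf19 had a median of -0.05. The 43 genes around Rbbp4 and the 20 around Suz12 had a median of -0.01 each.

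Levels were compared between subunits after dividing the average CPM by the length of all exons of the gene. On this scale of log2 CPM per kb, which pools both genotypes, Ezh2 was highest with 4.86, followed by Rbbp4 with 4.55, Mtf2 with 4.38 and Jarid2 with 4.01. Suz12 had 3.92, Eed 3.84 and Phf1 3.15. The lowest levels per kb were those of Aebp2 with 2.43, Ezh1 with 1.57 and Phf19 with -1.36. Ezh2 was thus 9.77-fold above Ezh1 in CPM per kb, or 10.8-fold when the longest transcript gave the length. Among the Polycomb-like subunits, Mtf2 was the most abundant and Phf19 the least. Which neighbours in this order differ beyond their spread cannot be said without values per library. With the longest transcript, Rbbp4 (6.08) and Ezh2 (6.05) changed places, as did Eed (4.72) with Suz12 (4.55) and Aebp2 (3.68) with Phf1 (3.58).

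**Figure D3:**
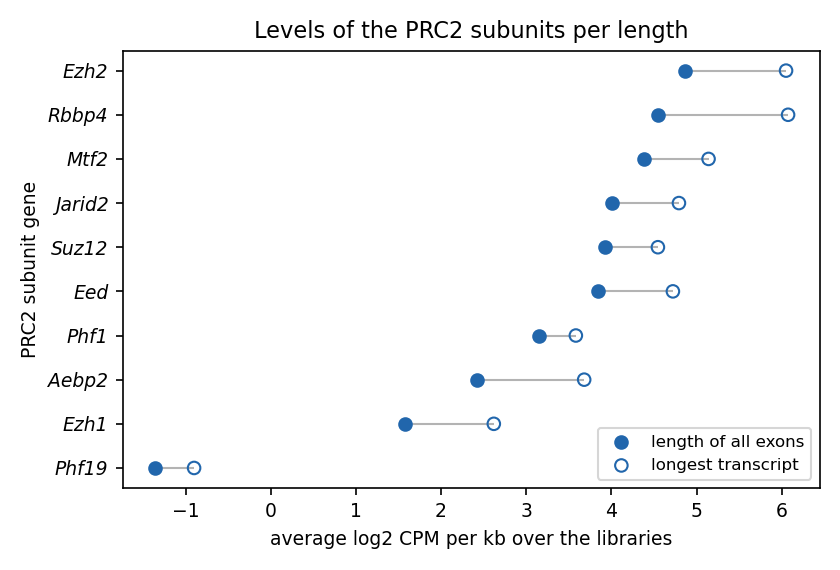
Average log2 CPM per kb over the 6 libraries (x axis) for each PRC2 subunit gene, with filled points for the length of all exons and open points for the longest transcript. Ezh2, Rbbp4 and Mtf2 are highest by either length, and Phf19 is far below the rest at -1.36 and -0.90.

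Several subunits are members of pairs of related genes, so the stretches at which their reads could be confused were looked up. The coding sequences of Ezh1 and Ezh2 shared 70.4% of 2143 aligned bases, and their longest common run was 17 bases. Rbbp4 and its close relative Rbbp7 shared 78.4% of 1272 aligned bases with a longest run of 20 bases. For the Polycomb-like genes the identity was 60.2% (Mtf2 and Phf1), 61.1% (Mtf2 and Phf19) and 62.2% (Phf1 and Phf19), with runs of 14 to 17 bases. The longest run of each of the first pairs is printed in capitals with 18 bases on each side in the sense direction, from GRCm39.
Ezh1, exon 21, chr11:101083787-101083803, minus strand: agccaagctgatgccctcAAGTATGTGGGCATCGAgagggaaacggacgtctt
Ezh2, exon 20, chr6:47507497-47507513, minus strand: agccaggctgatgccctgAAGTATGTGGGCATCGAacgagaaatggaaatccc
Rbbp4, exon 4, chr4:129216590-129216609, minus strand: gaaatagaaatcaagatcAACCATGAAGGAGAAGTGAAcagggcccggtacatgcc
Rbbp7, exon 4, chrX:161552813-161552832, plus strand: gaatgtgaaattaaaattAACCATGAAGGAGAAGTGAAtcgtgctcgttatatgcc
The coordinates are those of the capitals. Each common run is shorter than a sequencing read, and a longest run by definition ends at a difference on both sides. Only the coding sequence of a single transcript per gene was compared, so untranslated regions and pseudogenes were not covered. Whether reads were assigned to the wrong paralog was not tested.

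Exons of 7 subunits overlap, on the opposite strand, a gene that is also in the table. The libraries were made with a kit that keeps strand, but whether counting used it for this table is not given. The partners and their log2 fold changes are Cntnap1 for Ezh1 (-1.08), Cul1 for Ezh2 (0.05), Crlf3 for Suz12 (0.10), Dtnbp1 for Jarid2 (0.27), Tmed5 for Mtf2 (0.26), Cuta for Phf1 (0.14) and Sync for Rbbp4 (0.11). Cntnap1 had the lowest value of these partners, and Ezh1 beside it had 0.07. The part of the overlaps in the subunits' values was not tested.

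Ezh2 is a known target of E2F, the factor family that drives S-phase genes. The promoters of the subunits, taken from RefSeq on GRCm38.p6 as 250 bases before to 50 after the start, were searched on both strands for the E2F motif spelled TTTCGCGC or TTTGGCGC. The 10 subunits had 14 such promoter sequences, and Ezh2 alone held one of these spellings, at bases 4 to 11 of its transcript. The match is printed in capitals with its flanks because no other subunit had either spelling in this window. Other spellings of the motif and bases outside the window were not searched. The search therefore does not show that the other subunits lack E2F sites.
Ezh2, chr6:47595012-47595035, minus strand: ttgctgcgTTTGGCGCtcggtccg
Of 32851 promoter sequences of the same length, 267 held the motif (0.813%). A match is a description of the letters and not evidence of binding. The number of CG dinucleotides ran between 17 (Eed) and 41 (Suz12) in the most CG-rich promoter of each subunit, beside a median of 7 over all promoter sequences.

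Cell cycle genes were higher in Setd2-KO cells as point estimates, whereas Ezh2 was not. Of 24 cell cycle genes, 0 passed the authors' glmTreat test in either direction, beside 3.65% of all genes. In that test 0 had an unadjusted p under 0.05, beside 5.98% of all genes, and both counts lie near these shares. However, 24 of 24 lay above 0, beside 50.8% of all genes. Their median log2 fold change was 0.68, with a range of 0.26 to 0.98. Top2a, a topoisomerase of dividing cells, had 0.36, and the proliferation marker Mki67 had 0.35. All 24 lay above the -0.04 of Ezh2. The core subunits, at 0.25 to 0.39, overlapped the lower end of this range. These differences between genes were not tested.

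Among the other genes tied to PRC2, 4 of 5 were in the table and 0 passed the test in either direction. This count lies near the background of all genes (1.54% higher and 2.11% lower). Rbbp7, which replaces Rbbp4 in part of the complexes, had a log2 fold change of 0.64 or 1.56-fold (authors' glmTreat FDR = 1), above all 10 subunits. Of 987 genes of similar level, only 1.93% had a higher value. Rbbp7 is X-linked, and Xist, the RNA that silences one X chromosome, rose in Setd2-KO cells by 5.24 on the log2 scale (FDR = 3.6e-15). Whether the state of the X chromosome has a part in the value of Rbbp7 was not tested. The median of its 7 neighbours within 1 Mb was 0.03. Epop, a PRC2.1 partner that links it to elongin, had 0.21. Lcor and Lcorl, whose loci include PRC2.1 partners, had -0.75 and -0.01.

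Polycomb repressive complex 1 (PRC1), which ubiquitinates histone H2A and compacts chromatin at many of the same genes, had 29 genes in the table. Of these, 0 rose and 1 fell, a count near the background of all genes (1.54% higher and 2.11% lower). The one that fell was Auts2, a partner of a PRC1 form in neurons linked to gene activation, with -1.25 or 0.422 times the wild type level (authors' glmTreat FDR = 1.7e-05). The list had a median log2 fold change of -0.17 with 10 of 29 above 0, and the PRC2 subunits had a median of 0.16 with 6 of 10 above 0. The E3 ligases gave 0.28 for Rnf2 and -0.30 for Ring1, and the most abundant genes were Phc2 (-0.18) and Dcaf7 (-0.13).

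Of 11 genes for lysine 27 demethylases or for the H2A deubiquitinase and its partners, 0 rose and 1 fell, beside 1.54% and 2.11% of all genes. The gene that fell was Uty, the Y-linked relative of the demethylase Kdm6a, with -1.77 (authors' glmTreat FDR = 6.1e-08). Another Y-linked gene, Eif2s3y, fell as well (-2.31, FDR = 6.4e-13), and Ddx3y, at a low level of 1.31 log2 CPM, had 0.02. The share of cells with a Y chromosome in each line was not tested. The active demethylases Kdm6a and Kdm6b had 0.06 and -0.16, and Mbd6, a partner of the H2A deubiquitinase, had -0.23.

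Genes listed as targets of PRC2 gave mixed values. Of 46 measured genes listed as Polycomb targets of non-neural lineages, 9 rose and 1 fell in the authors' glmTreat test, beside 1.54% and 2.11% of all genes. The median log2 fold change was 0.27 with 26 of 46 above 0. Among those that rose were Hand2 (2.84) and Tbx5 (2.07), factors of heart and limb, Osr1 (2.85), a factor of the early kidney, and the mesoderm forkhead factors Foxc2 (2.01) and Foxf1 (2.09). Their FDR values ran between 1.6e-12 for Hand2 and 0.0014 for Tbx5. The others were Pax1, Pax9, Foxf2 and Gata3, with log2 fold changes of 1.33 (Gata3) to 1.93 (Pax1). The gene that fell was Cdkn2a, a cell cycle inhibitor and a classic PRC2 target (-1.46, FDR = 7.1e-05). The most abundant genes of the list, Pax2 (-0.79) and Wt1 (-0.30), did not pass the test. Their levels of 7.88 and 6.39 log2 CPM show that they were not silent in these cells. Whether each listed gene is confined to non-neural lineages was not examined. The list had a median level of 2.63 log2 CPM, under the 4.57 of all genes. Genes at low levels pass more often, as did 9.88% of the 911 genes near the 1.07 log2 CPM of Phf19, in either direction. Of the genes that rose, Tbx5 (-0.46), Pax1 (-0.24), Pax9 (0.18) and Foxf2 (0.22 log2 CPM) lay below that level. The others that rose lay above it, namely Foxc2 (4.49), Hand2 (3.35), Osr1 (3.29), Gata3 (2.88) and Foxf1 (1.70 log2 CPM). The share that passes at the level of each listed gene was not computed. The list was chosen with earlier results of these data known, so its counts describe these genes and test nothing.

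Of 33 measured Hox genes, 1 rose and 0 fell, a count near the background of 1.54% and 2.11% of all genes, and the median log2 fold change was -0.25 with 15 above 0. The gene that rose was Hoxc9 (1.75, authors' glmTreat FDR = 6.3e-08). The most abundant Hox genes, Hoxb9 (-0.32) and Hoxb8 (-0.45), did not pass. Their levels were 9.68 and 9.67 log2 CPM, and the list had a median level of 5.90, beside 4.57 for all genes. Many Hox genes were thus expressed in these cells, and their values do not describe a silent set. By cluster the medians were -0.32 for Hoxa, -0.42 for Hoxb, 0.67 for Hoxc and 0.58 for Hoxd, so the point estimates of the clusters lay on both sides of 0. The Hoxc and Hoxd medians rest on 7 and 6 genes. Of these, Hoxc10 (-0.42), Hoxc13 (-0.57), Hoxd10 (-2.07) and Hoxd13 (-1.16 log2 CPM) had low levels. In Hoxc 4 genes lay above 0 and 3 below, in Hoxd 5 and 1. Those below, Hoxc4, Hoxc5, Hoxc6 and Hoxd3, were the most abundant of their clusters, at 6.53 to 9.24 log2 CPM. Whether the methylation of lysine 27 at any of these genes differed was not measured by these libraries. In separate chromatin measurements of NPCs of both genotypes, the paper reports no significant change of this mark at the promoters of its changed genes.

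**Figure D4:**
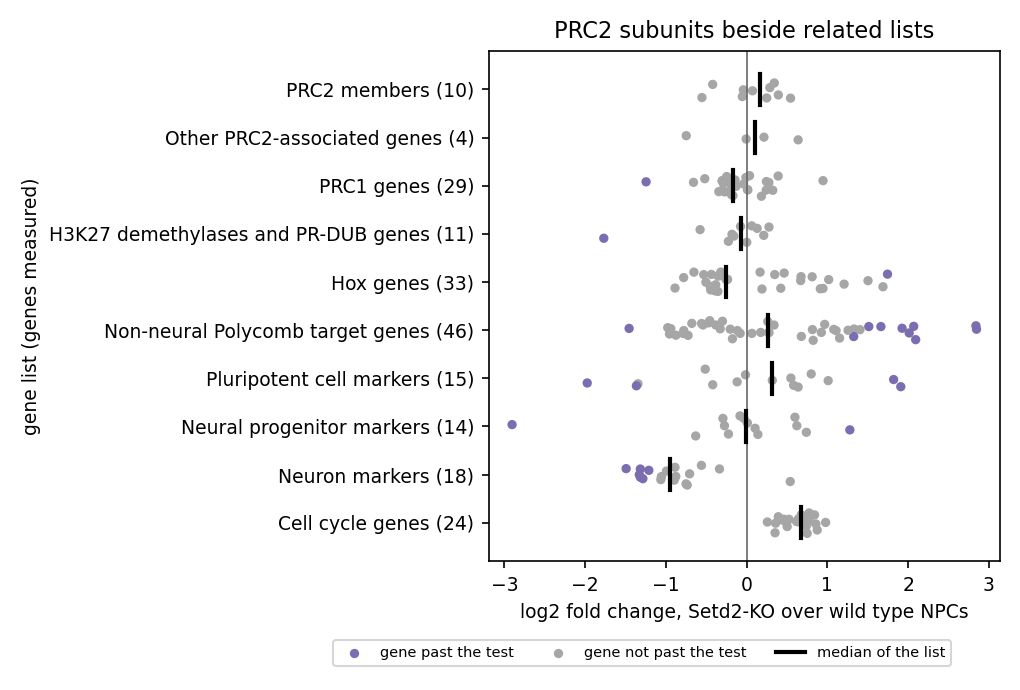
Log2 fold change between Setd2-KO and wild type cells (positive where Setd2-KO is higher) on the x axis for each gene of the PRC2 members and of the related lists (rows, number of measured genes in brackets). Purple points passed the authors' test, grey points did not, black bars are medians. The medians are 0.16 for the PRC2 members, -0.94 for the neuron markers and 0.68 for the cell cycle genes.

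Marker genes of the cell types were counted in the same way, and the counts are to be read beside the 1.54% of all genes that rose and the 2.11% that fell. Of 18 neuron markers 0 rose and 6 fell, with a median log2 fold change of -0.94 and 1 above 0, among them Elavl3 (-1.28) and Mapt (-1.32). Tubb3 (-0.99) and Ina (-1.06) did not pass. Of 14 neural progenitor markers, Slc1a3 rose (1.28) and Fabp7 fell (-2.91), and the median was -0.01. Vim (-0.03) and Msi1 (0.01), the most abundant progenitor markers, had values near 0, while Sox1 is not among the rows. Other progenitor markers lay further from 0 without passing the test. Pax6 (0.74), Hes1 (0.62) and Sox2 (0.60) were above 0 and Nes (-0.63) was below. Of the 14 progenitor markers, 7 lay above 0 and 7 below. Of 15 pluripotent cell markers Nr0b1 (1.82) and Utf1 (1.91) rose and Tdh (-1.37) and Tdgf1 (-1.97) fell, and the most abundant ones reached 3.88 (Tdh) and 3.71 (Klf4) log2 CPM, against 9.82 for Vim and 9.24 for Msi1, not corrected for length. In bulk RNA, fewer cells of a type and less RNA per cell cannot be told apart, and the part of the cells' makeup in the values of the PRC2 subunits was not tested. Setd2 itself had a log2 fold change of -0.44 at 6.88 log2 CPM (authors' glmTreat FDR = 1). For a related line, the study's methods describe an early frame-shifting deletion made with guides of the same origin, an edit that can leave the gene transcribed. This value therefore does not check the genotype.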

How the data were processed

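PolyA RNA of 3 Setd2-KO and 3 wild type NPC libraries was compared by the authors, whose table of 15095 genes was the only file used. The authors' deposited log2 values are a fold change and an average log2 CPM per gene, and the deposited p-values are those of glmTreat, run against a bound of 1 on the absolute log2 fold change, with their FDR. The paper's methods name nf-core/rnaseq with Salmon, GRCm39, GENCODE M35, filterByExpr, TMM scaling and edgeR, whereas the builds NCBIM37 and mm9 stand in the submitters' processing notes, beside STAR, Trim Galore and edgeR. In the table, 522 of 523 genes shared with the study's list of changed genes carry an older gene ID version, so the annotation behind the table is not settled. The file's sign runs wild type over Setd2-KO. It was turned, after which 518 of those 523 genes had the direction that list names.

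Counts per library and depth are unknown, so neither an SD nor an interval can be given. The FDR was recomputed over all genes and differed from the deposited one by at most 3.53e-15. Lists were described by counts and medians, and the code was tested on simulated data. Members and lists were chosen with earlier results of these data known. Named genes are all subunits, Setd2, Rbbp7 and, per list, up to 6 genes past the test by lowest p and the 2 of highest level. In long lists only some of these are printed. Xist, Eif2s3y, Ddx3y, Kdm6a, Rnf2, Ring1, Lcor, Lcorl, Pax1, Pax9, Foxf2, Gata3 and the genes that overlap subunits were named beyond this rule, after their values were seen. So were Pax6, Hes1, Sox2 and Nes. Positions, exon lengths and coding sequences come from GRCm39 with GENCODE vM39, to which 15066 gene IDs matched and 29 did not. Promoters come from RefSeq on GRCm38.p6. Python 3.11.15, numpy 2.4.6, pandas 2.3.3, scipy 1.17.1 and matplotlib 3.10.9 were used. Alternatives covered the FDR threshold, the adjustment, the centre of the fold changes, the set of subunits and the gene length.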

Additional observations from a re-analysis of the deposited data

How the results depend on the processing

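The count of PRC2 subunits past the authors' test was 0 of 10 at an FDR under 0.01 or under 0.1, at an unadjusted p under 0.05, and with the adjustment over genes of at least 0 log2 CPM only. No subunit's sign changed when the log2 fold changes were centred on the median of all genes (0.01) or on that of genes of at least 4 log2 CPM (-0.0016), and 6 of 10 stayed above 0. Without Rbbp4 the median of the subunits was 0.07 in place of 0.16. Among the related lists, the Hox genes that rose numbered 1 at an FDR under 0.05 and 2 at an FDR under 0.1. Levels per kb depended on the length used, as given with the levels above. No paired analysis was possible because the table holds no values per library. For the same reason no library could be left out, no low-count filter or other normalization tried, and no error given for a fold change.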
